A study of Homo sapiens with 4 samples.

Results

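The peaks described here lie at 8 loci that encode microRNAs (MIRLET7BHG, MIR21, MIR17HG, MIR22HG, MIR31HG, MIR205HG, MIR200C and MIR143HG). A peak was taken where it shared at least 1 base with the hg19 interval of a locus widened by 30 kb on each side. This gave 93 of 50364 peaks of acetylated lysine 27 of histone H3 (H3K27ac) and 25 of 36152 peaks of CTCF. Both come from chromatin immunoprecipitation followed by sequencing in DU145, an established human line of prostate cancer cells taken from a metastasis in the brain. No treatment is named beyond culture in medium with serum. The series also has input chromatin of DU145 and of LNCaP, a prostate cancer line from a lymph node metastasis, whose signal was not analysed here. Each of the 4 kinds of library was made once, so no value has a replicate error and no test between conditions was possible. DU145 was grown as a bulk culture, so strong acetylation in a part of the cells and weak acetylation in all of them cannot be told apart.

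MicroRNAs are cut from longer primary transcripts, first in the nucleus by Drosha with DGCR8 and then in the cytoplasm by Dicer, and guide Argonaute proteins to target messenger RNAs through the seed at their 5′ end. Many are carried by long noncoding host transcripts, so the promoter of the host takes part in setting their output. H3K27ac marks active promoters and enhancers, and CTCF binds insulators and the anchors of chromatin loops.

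The mature sequences show what each locus encodes. MicroRNA levels in DU145 were not measured here. They are the RefSeq sequences of the GRCh38 table, in which all 16 microRNAs sought were found. Capitals mark the seed (bases 2 to 8 from the 5′ end). The let-7 microRNAs of MIRLET7BHG, which repress LIN28 and RAS family transcripts, share 1 seed:
let-7a-5p: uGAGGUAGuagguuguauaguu
let-7b-5p: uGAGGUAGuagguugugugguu
MIR17HG carries the polycistron known as miR-17-92, a target of MYC that promotes proliferation. It holds 4 different seeds among its 6 microRNAs, of which miR-17 and miR-20a share a seed and miR-19a and miR-19b share another:
miR-17-5p: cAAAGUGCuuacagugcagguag
miR-20a-5p: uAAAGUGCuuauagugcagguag
miR-18a-5p: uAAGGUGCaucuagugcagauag
miR-19a-3p: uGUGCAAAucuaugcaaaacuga
miR-19b-3p: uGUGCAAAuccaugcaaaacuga
miR-92a-3p: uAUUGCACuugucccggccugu
miR-200c and miR-141, which hold cells in an epithelial state by repressing ZEB1 and ZEB2, lie together in the MIR200C interval and have seeds that are alike but not the same:
miR-200c-3p: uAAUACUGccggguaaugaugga
miR-141-3p: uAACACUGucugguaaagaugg
miR-143 and miR-145 of MIR143HG are abundant in smooth muscle and have unrelated seeds:
miR-143-3p: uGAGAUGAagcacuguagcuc
miR-145-5p: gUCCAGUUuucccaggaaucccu
The other loci carry 1 of these microRNAs each. miR-21 represses PDCD4 and is raised in many carcinomas, and miR-205 is known from basal epithelium. None of these seeds is shared between loci:
miR-21-5p: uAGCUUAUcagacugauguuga
miR-22-3p: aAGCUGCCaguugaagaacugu
miR-31-5p: aGGCAAGAugcuggcauagcu
miR-205-5p: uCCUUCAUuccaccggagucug

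H3K27ac was found at 7 of the 8 loci and CTCF at all 8. Genome-wide, 28.9% of windows of 61 kb (the shortest locus window) and 45.4% of windows of 165 kb (the longest) held an H3K27ac peak. For CTCF these shares were 40.6% and 64.9%. The H3K27ac peaks were spread unevenly: MIRLET7BHG had 30, MIR200C 17, MIR31HG 15, MIR21, MIR22HG and MIR143HG 10 each, MIR17HG 1 and MIR205HG 0. H3K27ac peaks covered 45.8% of the MIRLET7BHG window, 37.3% at MIR21 and 29.9% at MIR200C. They covered 16.5% at MIR22HG, 16.0% at MIR31HG, 5.84% at MIR143HG and 3.19% at MIR17HG. Of all windows of the same length, 0.0233% were covered as far as MIRLET7BHG, 0.160% as far as MIR21, 0.317% as far as MIR200C, 0.854% as far as MIR31HG and 1.43% as far as MIR22HG. The shares were 6.63% for MIR143HG and 12.7% for MIR17HG, and 70.5% of windows had no H3K27ac peak, as MIR205HG had none. The windows include centromeres and sequence without genes, whereas the loci lie at genes. The shares were not adjusted for this. The loci thus ran from the most densely acetylated windows of the genome to those with none.

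**Figure D1:**
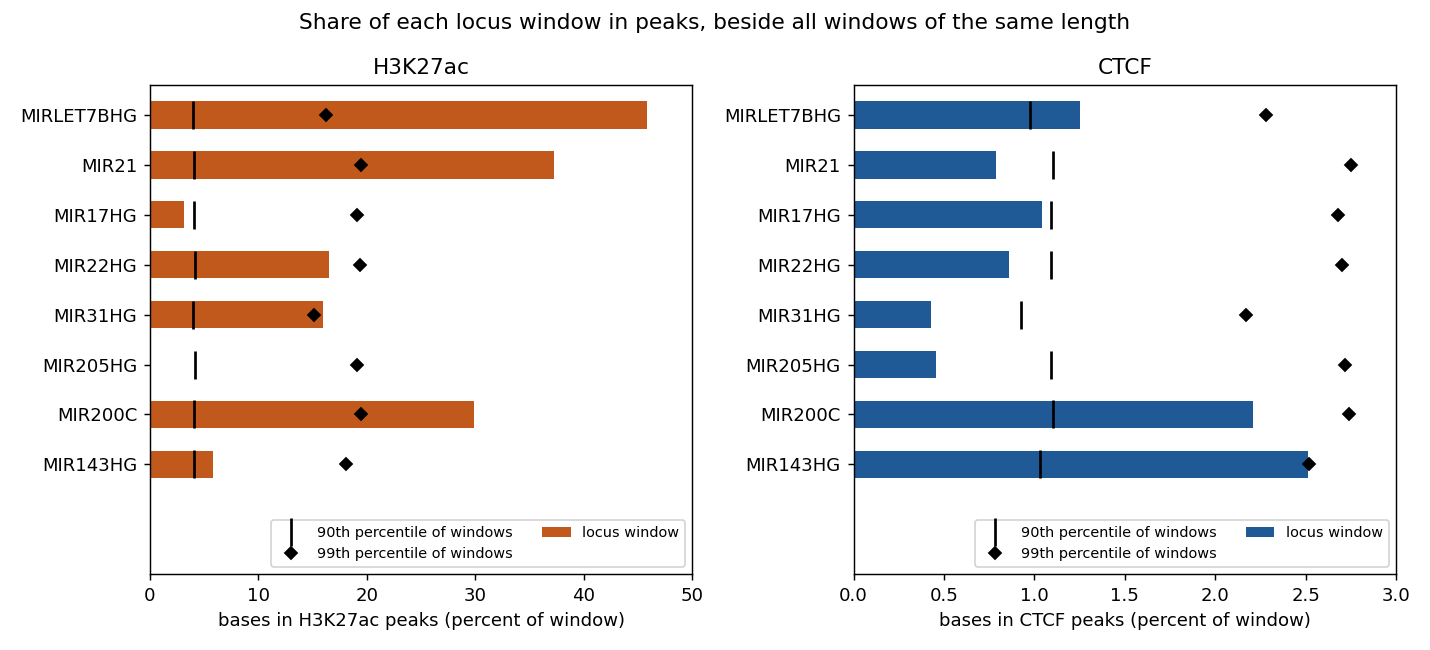
Bases in H3K27ac peaks (left) and in CTCF peaks (right) as a percent of each locus window (bars), with the 90th percentile (vertical ticks) and the 99th percentile (diamonds) of all windows of the same length. H3K27ac at MIRLET7BHG (45.8%), MIR21 (37.3%), MIR200C (29.9%) and MIR31HG (16.0%) lay beyond the 99th percentile, and MIR205HG had none.

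Fold enrichment is the peak caller's ratio at the summit over the local background, used here only within a list. The 93 H3K27ac peaks had a median fold of 5.27 (range 2.47 to 53.9) against 4.55 in the whole list. Of these 15 (16.1%) were at or above the 90th percentile of the list, against 10.0% of all H3K27ac peaks by construction, and 39 lay below its median. Peaks wider than 3 kb numbered 11 of 93, against 2.45% of the list. The numbers of fragments at the summit, solved from the deposited values, ran from 11 to 283. With a −log10 q of at least 10 there were 42 of the 93, against 43.4% of the list. The 25 CTCF peaks had a median fold of 12.6 (range 4.91 to 26.4) against 9.52 in the whole list, and 5 were at or above its 90th percentile, against 10.0% of all. Their summits had 17 to 93 fragments, and 22 of the 25 had a −log10 q of at least 10, against 79.8% of the list. At most loci a few strong H3K27ac peaks stood among many weak ones, while MIR143HG had only weak and middling peaks.

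**Figure D2:**
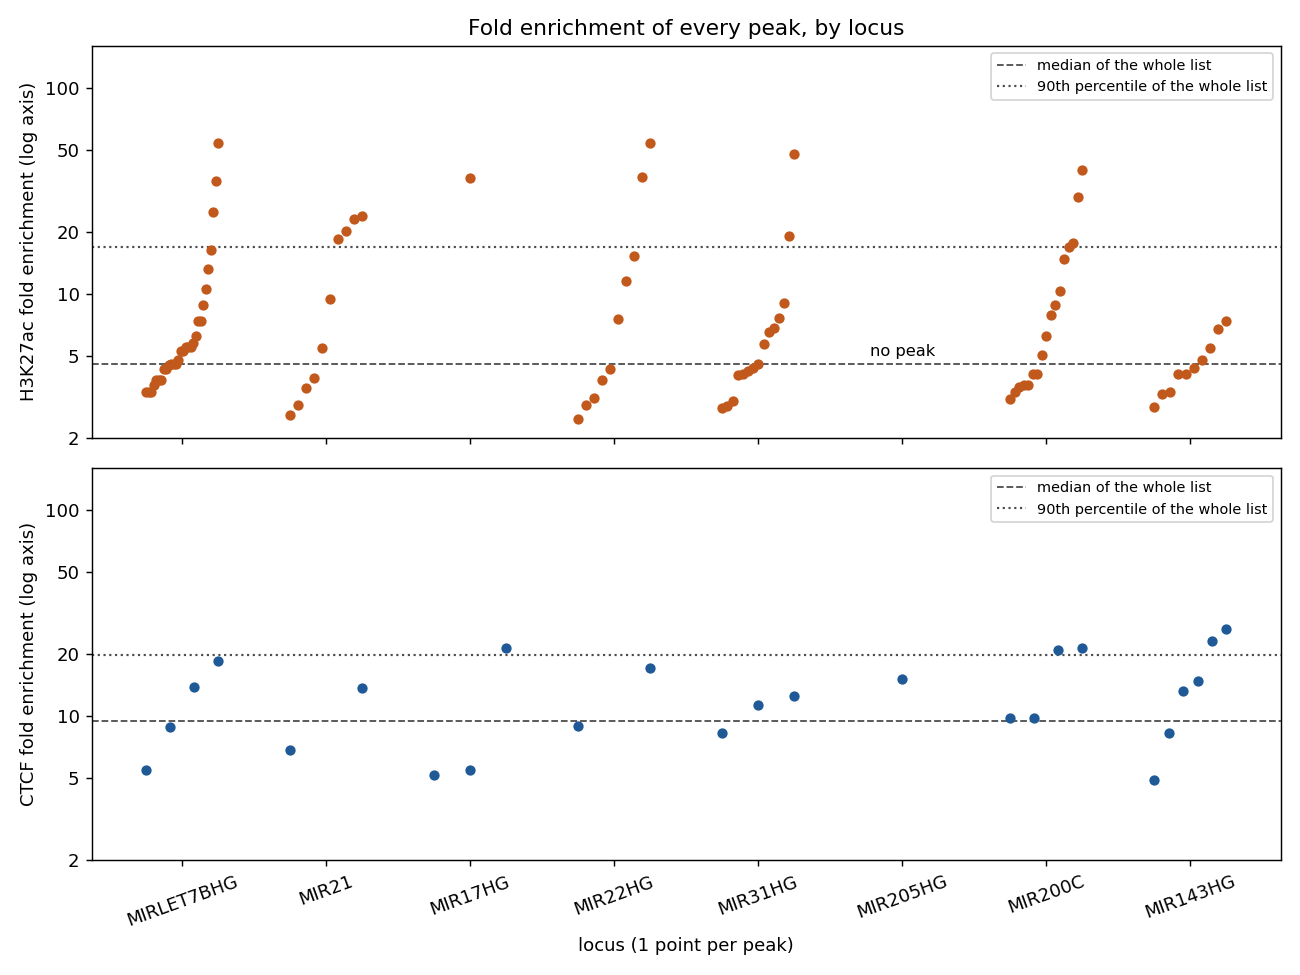
Fold enrichment (log axes) of every H3K27ac peak (top) and CTCF peak (bottom), 1 point per peak, by locus. Dashed and dotted lines give the median and the 90th percentile of the whole list. The strongest H3K27ac peaks stood at 53.9 (MIRLET7BHG) and 53.8 (MIR22HG), and the highest at MIR143HG was 7.34.

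MIR22HG, the host of miR-22, was strongly acetylated around the start of its interval. Its interval spans chromosome 17, 1614000 to 1620000 (all positions are in hg19), on the minus strand, so the transcript starts at the higher coordinate, to within the 1 kb to which the intervals are given. A peak at 1616166 to 1619617 inside the interval had a fold of 53.8 from 283 fragments (exact Poisson 95% interval 251 to 318) and ranked 51 of the 50364 H3K27ac peaks. A peak across the interval start, at 1619826 to 1622040, had a fold of 37.0 from 266 fragments (interval 235 to 300). RefSeq gives MIR22HG a length of 4707 bases in GRCh38, against 6000 for the interval. Which of the 2 peaks covers the start of the transcript is therefore not known here. These 2 peaks formed a stretch of 5.88 kb and carried 85.7% of the locus total of fold times width. The other 8 peaks had folds from 2.47 to 15.3. A CTCF peak at 1617181 to 1617422 (fold 8.95, 42 fragments, interval 30.3 to 56.8) lay inside the stronger acetylated peak. A stronger one, at 1624128 to 1624453 (fold 17.2, 93 fragments, interval 75.1 to 114.0), had its summit 4.28 kb upstream of the interval start. PRPF8, TLCD2, WDR81 and SERPINF2 neighbour MIR22HG in RefSeq, so peaks of the window can belong to them.

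MIR31HG, the long host of miR-31, was acetylated at its start and bound by CTCF near its far end. The interval lies at chromosome 9, 21455000 to 21560000, on the minus strand. A peak of 7.43 kb at 21554755 to 21562188 spanned the start with a fold of 47.6 from 213 fragments (interval 185 to 244), and ranked 133 of the H3K27ac peaks. Of the 15 H3K27ac peaks, 10 had their summit upstream of the start and 5 inside the interval. The one with the highest fold upstream, at 21588904 to 21593289, had a fold of 19.2 from 93 fragments (interval 75.1 to 114.0), with its summit 31.4 kb before the start. The interior summit farthest from the start belonged to a small peak at 21528441 to 21528809 (fold 4.38). The 3 CTCF peaks, at 21466024 to 21466238 (fold 12.6), 21455410 to 21455604 (fold 8.33) and 21434505 to 21434798 (fold 11.3), had their summits 93.9, 104 and 125 kb from the start. Each summit lay 62307 bases or more from the nearest H3K27ac peak, and no CTCF peak overlapped one. The interferon genes IFNE and IFNA1 are RefSeq neighbours of MIR31HG, so peaks of the window can belong to them.

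MIR17HG had a single H3K27ac peak, which covered the start of the interval and 2 CTCF peaks. The interval lies at chromosome 13, 92000000 to 92007000, on the plus strand. The peak at 91999867 to 92002004 had a fold of 36.4 from 151 fragments (interval 128 to 177), higher than 98.9% of the list. Inside it lay a weak CTCF peak at 92000670 to 92000837 (fold 5.18, 17 fragments, interval 9.90 to 27.2), with its summit 80 bases from the H3K27ac summit. A CTCF peak at 92001201 to 92001482 (fold 21.5, 74 fragments, interval 58.1 to 92.9), with a fold above 92.7% of its list, lay in it too. Another CTCF peak, at 92027436 to 92027685 (fold 5.47), had its summit 25550 bases from it. The acetylated start stood alone: the next H3K27ac peak was 11.1 Mb away on the lower side and 3.20 Mb on the higher side. The first of these gaps ranked 6 among 49758 gaps between neighbouring H3K27ac peaks, which include centromeres, and the second ranked 94. CTCF was sparse there too, with 14 peaks in the first gap (1.26 per Mb) and 8 in the second (2.50 per Mb), against 11.5 per Mb over the assembled chromosomes. Input coverage of these gaps was not analysed here.

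MIR200C, which holds miR-200c and miR-141, was acetylated across the microRNAs themselves. The interval lies at chromosome 12, 7072000 to 7074000, on the plus strand. A peak of 4.42 kb at 7069901 to 7074322 covered the whole interval with a fold of 39.9 from 182 fragments (interval 157 to 210), and ranked 366 of the H3K27ac peaks. A further peak at 7078411 to 7079884 had a fold of 29.7 from 123 fragments (interval 102 to 147), and one at 7080014 to 7081279 a fold of 17.7. A separate group of H3K27ac peaks had its first summit 28.5 kb upstream and its strongest peak at 7045888 to 7047253 with a fold of 16.8 from 69 fragments (interval 53.7 to 87.3). All 4 CTCF peaks overlapped H3K27ac. The H3K27ac peaks they met were the one over the interval, the strongest of the upstream group, and those at 7047397 to 7048339 (fold 7.90), 7053145 to 7054445 (fold 14.8) and 7074497 to 7075604 (fold 10.3). The strongest CTCF peaks, at 7053766 to 7054070 (fold 21.5, 74 fragments) and 7047223 to 7047519 (fold 20.9, 72 fragments), were in the upstream group. Those at 7071015 to 7071440 (fold 9.82, 42 fragments) and 7074237 to 7074580 (fold 9.78, 74 fragments) bordered the microRNAs on either side. The last 2 had like folds but unlike fragment numbers, and the local background was 2.75 times the genome-wide level at the second and 1.37 times at the first. ATN1, C12orf57, PTPN6, PHB2, EMG1 and LPCAT3 neighbour MIR200C in RefSeq, and peaks of this gene-dense window cannot be assigned to the microRNAs by position alone.

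**Figure D3:**
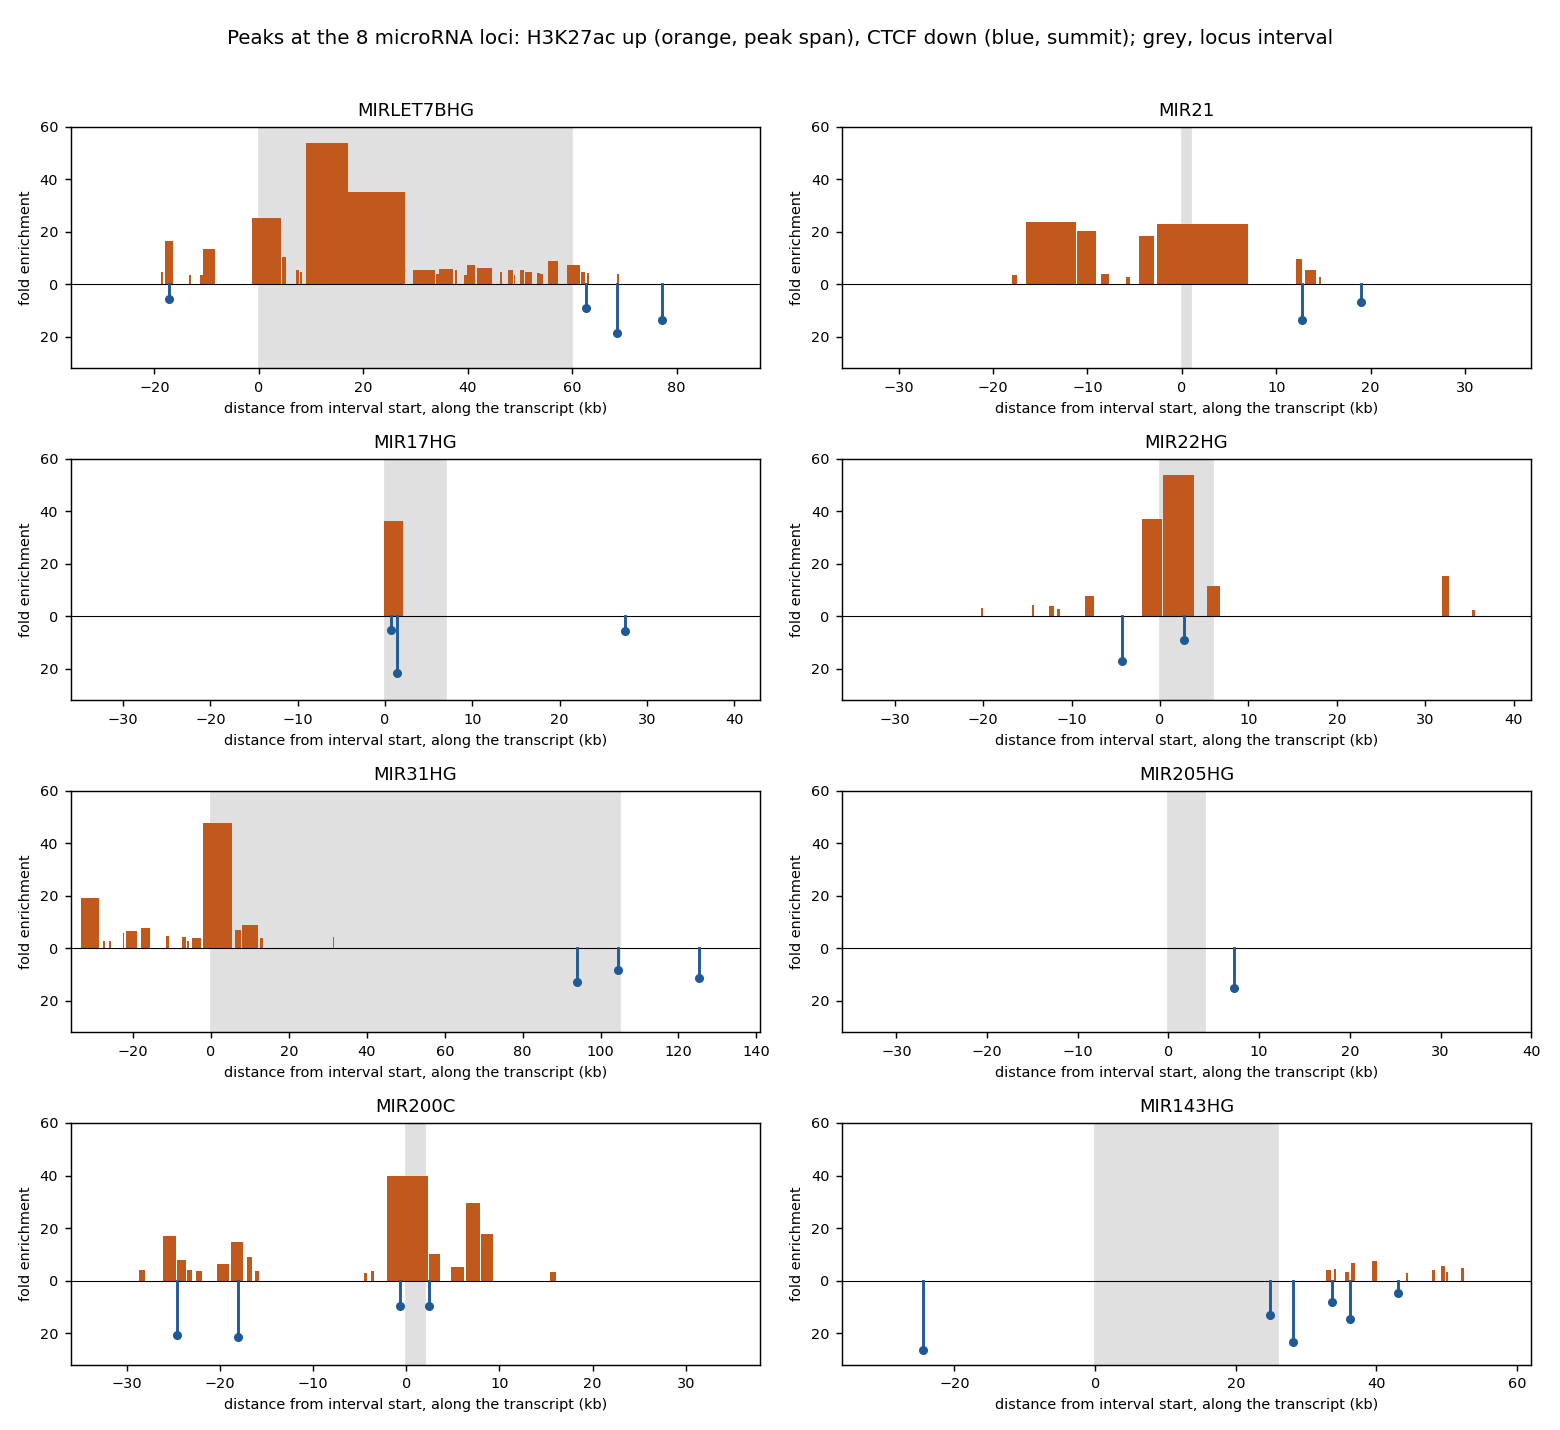
Peaks along the 8 loci, with distance from the start of the interval in the direction of transcription (kb) on the horizontal axis and fold enrichment on the vertical axis. Orange bars upward span H3K27ac peaks, blue stems downward stand at CTCF summits, and grey marks the interval. Acetylation covered the interval start at MIR22HG, MIR31HG and MIR17HG and the microRNAs at MIR200C and MIR21, and was absent from the intervals of MIR205HG and MIR143HG.

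MIRLET7BHG, the host of let-7a-3 and let-7b, had the largest acetylated area. Its interval lies at chromosome 22, 46450000 to 46510000, on the plus strand. The peak with the highest fold, at 46459021 to 46467027, was 8.01 kb wide and had a fold of 53.9 from 224 fragments (interval 196 to 255), which ranked 46 of the H3K27ac peaks. After 125 bases came a peak of 10.8 kb, at 46467153 to 46477938, with a fold of 35.2 from 146 fragments (interval 123 to 172). It ranked 17 in width among all H3K27ac peaks. These 2 peaks made a stretch of 18.9 kb and carried 69.6% of the locus total of fold times width. Another wide peak, at 46448685 to 46454280 (fold 25.1, 104 fragments, interval 85.0 to 126), covered the start of the interval. Toward the far end, near which RefSeq places let-7b in the host, the peak at 46509047 to 46511504 had a fold of 7.42 from 30 fragments (interval 20.2 to 42.8). RefSeq gives MIRLET7BHG a length of 27932 bases in GRCh38, against 60000 for the interval used here. Its start may therefore lie inside the interval. If the host ends at the far end, its start would fall in the peak at 46479514 to 46483814 (fold 5.51, 22 fragments). The peaks of fold 53.9, 35.2 and 25.1 would then lie before the host. The hg19 position of the start was not available here. The 4 CTCF peaks were outside the interval, 1 upstream at 46432761 to 46432950 (fold 5.47) and 3 past the far end at 46512410 to 46512907 (fold 8.90), 46518309 to 46518640 (fold 18.6) and 46526957 to 46527436 (fold 13.8). They met 4 H3K27ac peaks: a strong one upstream at 46431961 to 46433475 (fold 16.3, 67 fragments) and weak ones at 46511662 to 46512433 (fold 4.55), 46512835 to 46513190 (fold 4.31) and 46518638 to 46518975 (fold 3.83).

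MIR21 lay under one of the widest H3K27ac peaks of the list. The interval at chromosome 17, 57918000 to 57919000, on the plus strand, holds the microRNA, which lies at the end of the autophagy gene VMP1. The peak at 57915318 to 57924993 was 9.68 kb wide (rank 30 in width), had a fold of 23.0 from 147 fragments (interval 124 to 173) and covered the whole interval. Its summit was 2.24 kb before the interval. The peaks before it had similar folds: 23.8 from 135 fragments (interval 113 to 160) at 57901476 to 57906739, 20.3 from 130 fragments (interval 109 to 154) at 57906885 to 57908944, and 18.4 from 111 fragments (interval 91.3 to 134) at 57913460 to 57915087. The fragment intervals of these 4 peaks overlapped, and differences between the peaks were not tested. VMP1 and TUBD1 neighbour MIR21 in RefSeq, so peaks of the window can belong to them. Both CTCF peaks lay downstream. One at 57930605 to 57930916 (fold 13.7, 59 fragments) overlapped the end of an H3K27ac peak of fold 9.41, and one at 57936899 to 57937068 (fold 6.86, 29 fragments) had its summit 4199 bases beyond acetylation. The local background at the 4 strong H3K27ac peaks was 1.48 to 1.71 times the genome-wide level, whereas at the strongest peaks of MIRLET7BHG it was at that level. Whether these differences come from DNA copy number was not tested.

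MIR205HG, the host of miR-205, had no H3K27ac peak. The interval at chromosome 1, 209602000 to 209606000, lay in a stretch of 1.16 Mb free of H3K27ac peaks (rank 410 of 49758 gaps). The nearest such peak was 174 kb away. Unlike the surroundings of MIR17HG, this stretch held many CTCF peaks: 20, or 17.2 per Mb. One of them, at 209609105 to 209609396, fell in the window, its summit 7.24 kb after the start, with a fold of 15.1 from 65 fragments (interval 50.2 to 82.8). The smallest H3K27ac peaks of the list rest on 10 fragments, so acetylation below that was not detectable at this depth. More fragments are needed where the local background is higher, and the H3K27ac background at MIR205HG is not known here.

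MIR143HG, named CARMN in RefSeq, had the most CTCF peaks of the 8 loci, no H3K27ac peak in its interval and weak to middling ones past it. The interval lies at chromosome 5, 148786000 to 148812000, on the plus strand. No H3K27ac summit lay upstream of the start or in the interval. All 10 H3K27ac peaks lay past the far end, with folds from 2.82 to 7.34, and 6 were below the median of the list. The highest fold was 7.34 at 148825328 to 148826117, from 31 fragments (interval 21.1 to 44.0). The peak nearest to the start, at 148818825 to 148819544, had a fold of 4.07. IL17B neighbours MIR143HG in RefSeq, and peaks past the interval cannot be assigned to the host by position alone. The one H3K27ac peak that met CTCF, at 148822392 to 148822896, had a fold of 6.76 and overlapped a CTCF peak of fold 14.8. CTCF stood at 6 sites: a strong peak at 148761194 to 148761823 (fold 26.4, 91 fragments, interval 73.3 to 112), with its summit 24.4 kb upstream of the start, and 5 between 148810675 and 148829126. Of these 5, the strongest was at 148813902 to 148814379 (fold 23.2, 83 fragments, interval 66.1 to 103), just past the end of the interval. The interval thus had CTCF close to its far end and no H3K27ac peak within it. Of all windows of this length, 1.27% held as many CTCF peaks.

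Joining neighbouring H3K27ac peaks into domains, over the gap commonly used to define super-enhancers, and ranking the domains by the sum of fold times width gave a large domain at 6 of the 8 loci (past the point where the scaled ranked curve has a slope of 1). The large domains numbered 784 of 18213. That is a share of domains. The share of windows of these lengths that meet a large domain was not computed, so the count of 6 loci has no like background. The MIRLET7BHG domain ranked 3, MIR31HG 42, MIR21 66, MIR200C 87, MIR22HG 166 and MIR143HG 746. The last passed because its domain ran 58.9 kb and 23 peaks, 13 of them beyond the window. MIR17HG, with its single peak, ranked 1557. Of the 93 H3K27ac peaks 89 were in large domains, against 22.6% of the list.

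CTCF and H3K27ac met often at these loci. Of the 25 CTCF peaks 12 (48.0%) shared a base with an H3K27ac peak, against 14.2% of the whole list. In the other direction 13 of 93 H3K27ac peaks (14.0%) met CTCF, against 10.1%. The CTCF count rested on a few loci: MIR200C gave 4, MIRLET7BHG 3, MIR17HG 2, and MIR21, MIR22HG and MIR143HG 1 each. MIR31HG and MIR205HG gave 0 of their 4. The windows differ in how much acetylated sequence they hold, which was not adjusted for. The summit itself was inside acetylation in 6 of the 25, against 8.40% of the list: 2 each at MIR17HG and MIR200C and 1 each at MIRLET7BHG and MIR22HG.

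A further 6 summits fell between H3K27ac peaks at most 500 bases apart, against 1.68% of the list. Gaps this short made up 15 of the 29 between neighbouring H3K27ac peaks at MIRLET7BHG and 10 of 16 at MIR200C. The comparison with the list was not adjusted for this. The gaps around the 6 summits measured 401 bases at MIRLET7BHG, 291 at MIR21, 143 and 174 at MIR200C, and 360 and 366 at MIR143HG. At MIR200C the gap of 174 bases separated the peak over the microRNAs from the next one, and the CTCF summit stood 64 bases from the nearer edge. At MIR21 the summit was 11 bases from the edge. The 6 summits inside acetylation had CTCF folds from 5.18 to 21.5 (median 9.39), those in short gaps from 8.33 to 20.9 (median 11.7) and the other 13 from 4.91 to 26.4 (median 13.2), so the 3 ranges overlapped widely.

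**Figure D4:**
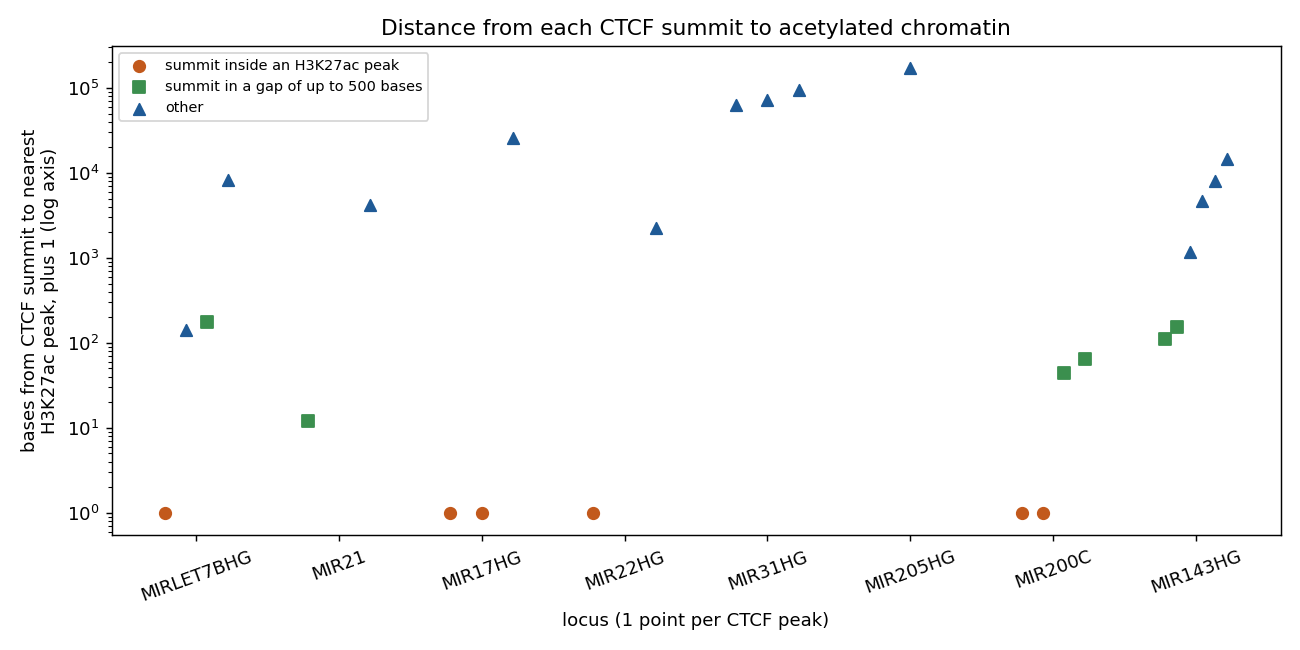
Bases from each of the 25 CTCF summits to the nearest H3K27ac peak, plus 1, on a log axis, by locus. Circles mark summits inside an H3K27ac peak (6), squares summits in gaps of up to 500 bases (6) and triangles the other 13. All 4 summits of MIR200C lay within 64 bases of acetylation, and the 3 of MIR31HG lay 62307 bases or more from it.

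The host promoters differed in CG content. MIR143HG and MIR205HG, which had no H3K27ac peak at the start, had the fewest CGs of the loci with a promoter entry. RefSeq promoter windows in GRCh38 (250 bases before the gene start to 50 after it) were found for 7 of the 8 loci; MIR200C was matched by its host MIR200CHG, and MIR21 had no entry. These windows are shown for the ends of the range, with each CG dinucleotide in capitals:
MIR17HG, GRCh38 chr13:91347437-91347736, plus strand: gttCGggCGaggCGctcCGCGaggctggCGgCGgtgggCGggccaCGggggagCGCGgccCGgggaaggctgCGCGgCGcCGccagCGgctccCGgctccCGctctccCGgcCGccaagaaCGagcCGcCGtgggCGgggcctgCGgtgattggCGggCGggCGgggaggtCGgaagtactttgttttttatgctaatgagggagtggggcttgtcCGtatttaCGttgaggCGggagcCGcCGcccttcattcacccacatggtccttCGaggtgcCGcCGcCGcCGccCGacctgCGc
MIR31HG, GRCh38 chr9:21559749-21560048, minus strand: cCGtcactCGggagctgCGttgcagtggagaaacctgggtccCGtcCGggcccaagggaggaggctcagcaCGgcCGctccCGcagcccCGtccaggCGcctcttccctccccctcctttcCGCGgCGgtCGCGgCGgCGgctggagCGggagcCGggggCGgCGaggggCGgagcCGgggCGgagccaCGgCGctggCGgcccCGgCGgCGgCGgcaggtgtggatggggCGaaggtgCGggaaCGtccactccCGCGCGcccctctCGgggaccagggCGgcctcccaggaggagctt
MIR143HG (CARMN), GRCh38 chr5:149406595-149406894, plus strand: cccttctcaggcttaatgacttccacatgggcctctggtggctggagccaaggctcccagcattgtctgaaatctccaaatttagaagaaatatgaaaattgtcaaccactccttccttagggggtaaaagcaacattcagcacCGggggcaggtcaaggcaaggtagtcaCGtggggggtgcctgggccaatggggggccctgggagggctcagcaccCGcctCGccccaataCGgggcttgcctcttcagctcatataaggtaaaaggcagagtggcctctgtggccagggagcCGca
MIR205HG, GRCh38 chr1:209428570-209428869, plus strand: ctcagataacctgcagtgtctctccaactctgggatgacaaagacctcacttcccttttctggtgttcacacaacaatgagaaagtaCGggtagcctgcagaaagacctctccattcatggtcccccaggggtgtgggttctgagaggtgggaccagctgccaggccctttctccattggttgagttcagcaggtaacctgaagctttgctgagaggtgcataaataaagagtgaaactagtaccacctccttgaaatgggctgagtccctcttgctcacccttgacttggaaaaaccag
MIR17HG had 42 CGs and MIR31HG 39, against 6 at MIR143HG and 1 at MIR205HG. The median over 35116 RefSeq promoters was 14.0, and 5.85% had as many as MIR17HG. Fewer CGs than MIR143HG were found in 33.7% of promoters, and fewer than MIR205HG in 3.96%. MIR22HG had 32, and MIRLET7BHG with 13 and MIR200C with 10 were also below the median. Among H3K27ac peaks that reached within 1 kb of the interval start, the highest fold was 53.8 at MIR22HG, 47.6 at MIR31HG, 39.9 at MIR200C, 36.4 at MIR17HG and 25.1 at MIRLET7BHG. No peak did so at MIR143HG or MIR205HG. The fold is that of the peak summit, which at MIRLET7BHG lay 2.22 kb from the interval start. For MIRLET7BHG the fold was taken at the interval start, while its CGs were counted at the RefSeq start, which may lie elsewhere. The order by CG content and the order by fold differed among the 5 loci with a peak at the interval start. The orders also differed with MIRLET7BHG left out.

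**Figure D5:**
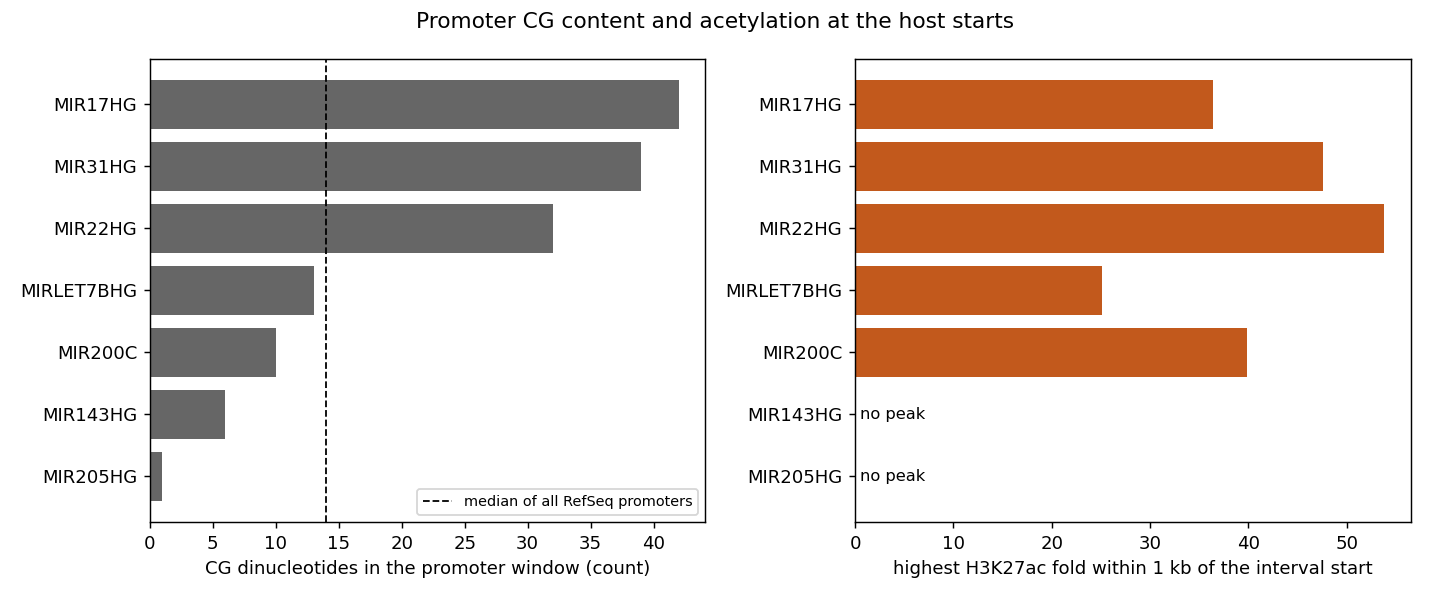
CG dinucleotides in the 300-base RefSeq promoter window (left, with a dashed line at the median of all promoters) for the 7 loci with a promoter entry. The right side gives the highest summit fold among H3K27ac peaks that reached within 1 kb of the interval start. MIR143HG (6 CGs) and MIR205HG (1 CG) had no H3K27ac peak at the start. For MIRLET7BHG the CG count is of the RefSeq start and the fold is of the interval start, which may be different places.

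Motifs were counted in the same windows on both strands. The GC box GGGCGG, bound by SP1, was found 6 times in the MIR17HG promoter, 4 times in MIR31HG, 3 times in MIR22HG and once each in MIRLET7BHG and MIR200C, and in neither MIR143HG nor MIR205HG. Of all promoters 45.0% held it. The CCAAT box, bound by NF-Y, was found in MIR17HG, MIR22HG, MIR205HG and MIR143HG (34.6% of all promoters). The E-box CACGTG, the letters preferred by MYC and its relatives, was found in the MIR143HG promoter (7.26% of all promoters). The TATA box TATAAA (11.5% of all promoters) and the AP-1 motif TGANTCA (7.71%) were in none of the 7 windows. These are matches of letters only.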

How the data were processed

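The deposited files are a narrow peak list for the DU145 CTCF library and one for the DU145 H3K27ac library. Bowtie and MACS2 were used with hg19, per the submitters' processing notes; which versions, settings and control library were used is not given in the sources used here. For each peak the authors deposited a position, a summit, a whole-number score (not used further), a fold enrichment (linear ratio), and p-values and q-values as −log10. No peak in either list had a −log10 q under 1.31. Each list is from 1 library.

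Fragments at a summit were solved from fold and −log10 p, taking fold as (fragments times scale + 1) over (background + 1), with a tolerance of 0.002 on −log10 p. The scale was 0.9115 for CTCF and 1 for H3K27ac. This solved 99.994% and 100% of peaks and was tested on simulated data. The genome-wide background, the most frequent value, was 2.18 fragments for CTCF and 3.18 for H3K27ac. Median depth at a summit was 45 fragments for CTCF and 23 for H3K27ac. Poisson intervals cover counting error only.

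Windows of each locus length were tiled along the 24 assembled chromosomes, up to the last peak. The peaks named were, per locus and list, all where there were 4 or fewer, otherwise the 2 of highest fold, the widest, the one nearest the start, and those overlapping the other mark; some others, chosen after their values were seen, are named for the pattern they show. The members and lists were chosen with earlier results of these data known. The distances between H3K27ac peaks, the short gaps, CG content and motifs were added after the data were seen. hg19 positions of microRNA processing genes were not used here. Python 3.11.15, numpy 2.4.6, pandas 2.3.3 and scipy 1.17.1 were used.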

Additional observations from a re-analysis of the deposited data

How the results depend on the processing

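Of 28 alternatives, 21 kept the count within 1.5 times, and 7 did not. The number of loci with H3K27ac stayed at 7 under all 5 alternatives. With the intervals widened by 10 kb, H3K27ac peaks fell to 54, CTCF peaks to 14 and CTCF peaks overlapping H3K27ac to 7, and MIR21 had no CTCF peak. With a −log10 q of 10 or more 42 H3K27ac peaks were left. With folds at or above the list median there were 54 H3K27ac and 16 CTCF peaks. The summit lay inside H3K27ac for 6 CTCF peaks. All of these alternatives take fewer peaks by construction. Between 5 and 6 loci met a large domain. No paired analysis was possible because each group has 1 library. Depth limits the weak peaks: the smallest H3K27ac peak at these loci rests on 11 fragments.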
